A study of Homo sapiens with 8 samples.

Results

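The regulators of the epithelial and mesenchymal state described here were 10 genes given by name: SNAI1, SNAI2, TWIST1, ZEB1, ZEB2, VIM, GRHL2, OVOL1, ESRP1 and ESRP2. For each gene the value came from the probe set listed with that symbol alone and with the highest mean over 8 arrays, which gave a value for 9 of the 10 genes among 22465 genes in all. The only probe set of ZEB2 is listed together with its antisense gene ZEB2-AS1, so no value is given for ZEB2. Each of the other 9 genes had a single probe set.

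Total RNA was hybridised to Affymetrix arrays of the Human Transcriptome 2.0 design, in 4 groups of 2 arrays each. BPH-1 cells (BPH1 in the labels), an immortalised human prostate epithelial line from benign hyperplasia, and WPMY-1 cells, an immortalised human prostate myofibroblast line, were each exposed to 250 μg/ml Pao extract (PAO in the labels), a bark extract of Pao pereira prepared in DMSO, or to vehicle. The labels give an exposure of 48 h, while the methods of the study give a shorter exposure for the arrays. Each cell type is represented by 1 line, BPH-1 cells were grown in RPMI1640 and WPMY-1 cells in DMEM, and the line and its medium cannot be told apart in any comparison between them. Whether the paired arrays of a group stem from separate cultures is not stated in the labels, and the p-values therefore rest on a spread between arrays that may be technical only. In a bulk sample, fewer cells that express a gene and less RNA per cell cannot be told apart.

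Epithelial cells hold together through E-cadherin, tight junctions and desmosomes, whereas mesenchymal cells lose these contacts and build vimentin filaments and matrix. SNAI1, SNAI2, ZEB1 and ZEB2 are zinc finger repressors that bind E-box motifs in the promoters of epithelial genes, and TWIST1 is a basic helix-loop-helix factor that acts on the same side. GRHL2 and OVOL1 are transcription factors of the epithelial state, and GRHL2 and ZEB1 repress each other. ESRP1 and ESRP2 are splicing factors that keep the epithelial isoforms of receptors and adhesion proteins. VIM encodes vimentin, the intermediate filament protein by which mesenchymal cells are recognised. MicroRNAs of the miR-200 family bind the messenger RNAs of ZEB1 and ZEB2, and the ZEB proteins in turn repress the loci of these microRNAs.

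The 5 microRNAs of this loop are shown because they fall into 2 seed groups. They are printed 5′ to 3′ from RefSeq (GRCh38.p14), with the seed, bases 2 to 8, in capitals. The loci of miR-200b, miR-200a and miR-429 lie together on chromosome 1, and those of miR-200c and miR-141 lie together on chromosome 12.
hsa-miR-200b-3p (chr1:1167160-1167181, + strand): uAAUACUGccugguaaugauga
hsa-miR-429 (chr1:1169055-1169076, + strand): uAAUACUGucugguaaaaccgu
hsa-miR-200c-3p (chr12:6963742-6963764, + strand): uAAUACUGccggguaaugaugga
hsa-miR-200a-3p (chr1:1167916-1167937, + strand): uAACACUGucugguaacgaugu
hsa-miR-141-3p (chr12:6964155-6964176, + strand): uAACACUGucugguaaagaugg
The first 3 share the seed AAUACUG and the last 2 the seed AACACUG, so each chromosomal cluster holds both seeds.

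SNAI and ZEB proteins bind the E-box CACCTG, which reads CAGGTG on the opposite strand. This E-box, searched on both strands in windows that run from 250 bases before to 50 bases after a start site, was found for 6571 of 27305 genes (24.1%) with a promoter in the RefSeq table. Of 30 epithelial junction genes, listed as repressed by SNAI and ZEB factors or activated by GRHL2, 17 had a promoter in the table. CDH1 and EPCAM were not among these. The E-box was held by 12 of the 17 (70.6%), at a median GC content of 67.5% against 58.7% over all windows. Of 24 mesenchymal markers, 14 had a promoter and 2 (14.3%), LOX and S100A4, held it. Genes listed as repressed by factors that bind this E-box can be expected to hold it, so these shares are no test of the factors. Among the regulators themselves, 3 had a promoter in the table: ZEB1 held the E-box in 2 of its 7 windows, and VIM and ZEB2 held none. A match describes these letters only, and binding was not measured. Promoters of 3 junction genes and of MIR200CHG, the host transcript of miR-200c and miR-141, are printed as examples picked after the motif counts were known, with the E-boxes in capitals, in the direction of the gene (GRCh38.p14).
CRB3 (chr19:6464021-6464320, + strand): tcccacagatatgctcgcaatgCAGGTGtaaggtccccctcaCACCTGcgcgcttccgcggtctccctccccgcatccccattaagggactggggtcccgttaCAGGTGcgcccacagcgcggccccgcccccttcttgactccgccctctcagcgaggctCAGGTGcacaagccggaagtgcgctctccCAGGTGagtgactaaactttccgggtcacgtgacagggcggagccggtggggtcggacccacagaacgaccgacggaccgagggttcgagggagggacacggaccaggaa
RAB25 (chr1:156060910-156061209, + strand): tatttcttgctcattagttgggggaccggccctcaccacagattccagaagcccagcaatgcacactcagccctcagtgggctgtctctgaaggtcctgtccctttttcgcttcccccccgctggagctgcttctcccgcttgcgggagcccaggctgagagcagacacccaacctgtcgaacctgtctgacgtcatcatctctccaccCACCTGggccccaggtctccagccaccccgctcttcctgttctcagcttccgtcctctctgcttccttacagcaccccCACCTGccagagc
AP1M2 (chr19:10587263-10587562, − strand): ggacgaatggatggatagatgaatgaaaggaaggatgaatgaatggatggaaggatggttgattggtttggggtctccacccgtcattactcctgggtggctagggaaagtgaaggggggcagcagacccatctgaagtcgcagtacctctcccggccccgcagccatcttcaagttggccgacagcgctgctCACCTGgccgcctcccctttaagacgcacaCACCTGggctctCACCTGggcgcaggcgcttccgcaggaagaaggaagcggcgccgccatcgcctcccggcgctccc
MIR200CHG (chr12:6962995-6963294, + strand): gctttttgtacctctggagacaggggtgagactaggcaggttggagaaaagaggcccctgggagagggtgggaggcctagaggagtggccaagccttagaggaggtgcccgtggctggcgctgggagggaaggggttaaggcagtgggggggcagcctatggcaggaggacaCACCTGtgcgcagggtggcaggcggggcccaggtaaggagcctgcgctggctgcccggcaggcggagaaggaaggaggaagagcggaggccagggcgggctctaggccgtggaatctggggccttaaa
CRB3, a polarity protein of the apical membrane, had 5 E-boxes in this window, AP1M2, a sorting adaptor of epithelial cells, had 3, RAB25, a GTPase of epithelial vesicle recycling, had 2, and MIR200CHG had 1. The levels of CRB3, RAB25 and AP1M2 are given with the junction genes, and MIR200CHG itself was not measured.

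All levels are log2 values after RMA, the background correction and normalisation made by the authors, and each belongs to 1 probe set. Differences were therefore taken only within a gene. The background calls below set a gene against probe sets of other genes and are a rough guide only. Replicate arrays correlated with r from 0.9947 to 0.9966 over all probe sets, and array medians over the genes lay between 5.62 and 5.79. As a gauge of background, 16 measured genes of liver, heart, pancreas, eye, kidney, thyroid, nose or sperm were used, and a group mean at or below their 95th percentile (6.16 to 6.26 in the 4 groups) was called near background. The epithelial markers (9 of 10 measured) had array medians of 9.66 to 9.79 in BPH-1 cells, against 5.45 to 5.63 in WPMY-1 cells, and those of the stromal markers (10 of 11 measured) were 5.04 to 5.15 in BPH-1 cells, against 6.57 to 7.09 in WPMY-1 cells. With vehicle, limma called all 9 measured epithelial markers higher in BPH-1 than in WPMY-1 cells (adjusted p under 0.05), against 15.6% of all genes. It called 9 of the 10 stromal markers lower, against 15.3% of all genes. Single markers, picked after their values were seen, had levels in 1 line that its label would not predict. KRT14, a basal keratin, was near background in vehicle-treated BPH-1 cells (mean log2 level 5.99), whereas KRT5, also a basal keratin, had 10.95 there. ACTA2, the smooth muscle actin that defines myofibroblasts, was near background in vehicle-treated WPMY-1 cells (6.20), where the epithelial keratins KRT8 (7.09 and 7.13) and KRT18 (9.05 and 8.95) were above it on both arrays. Array medians of endothelial (3.93 to 4.06), leukocyte (4.37 to 4.71) and neuroendocrine markers (4.89 to 5.32) lay in the range of background in both lines.

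In BPH-1 cells 6 of the 9 measured regulators were above background with Pao extract and with vehicle: SNAI2, ZEB1, VIM, GRHL2, ESRP1 and ESRP2. In WPMY-1 cells 4 were above it with either treatment: SNAI2, TWIST1, ZEB1 and VIM. SNAI1 and OVOL1 were near background in all 4 groups, so their differences are not a measure of expression. Any difference against a group near background, of a regulator or of a related gene, is a lower bound. CRYGD, a lens gene among the background genes, had log2 levels near 7 in every group (6.93 to 7.04). ZEB1 in BPH-1 cells and TWIST1 in WPMY-1 cells are therefore not securely above background, nor are related genes below that level. The plot of the 9 genes by array shows the levels described below.

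**Figure D1:**
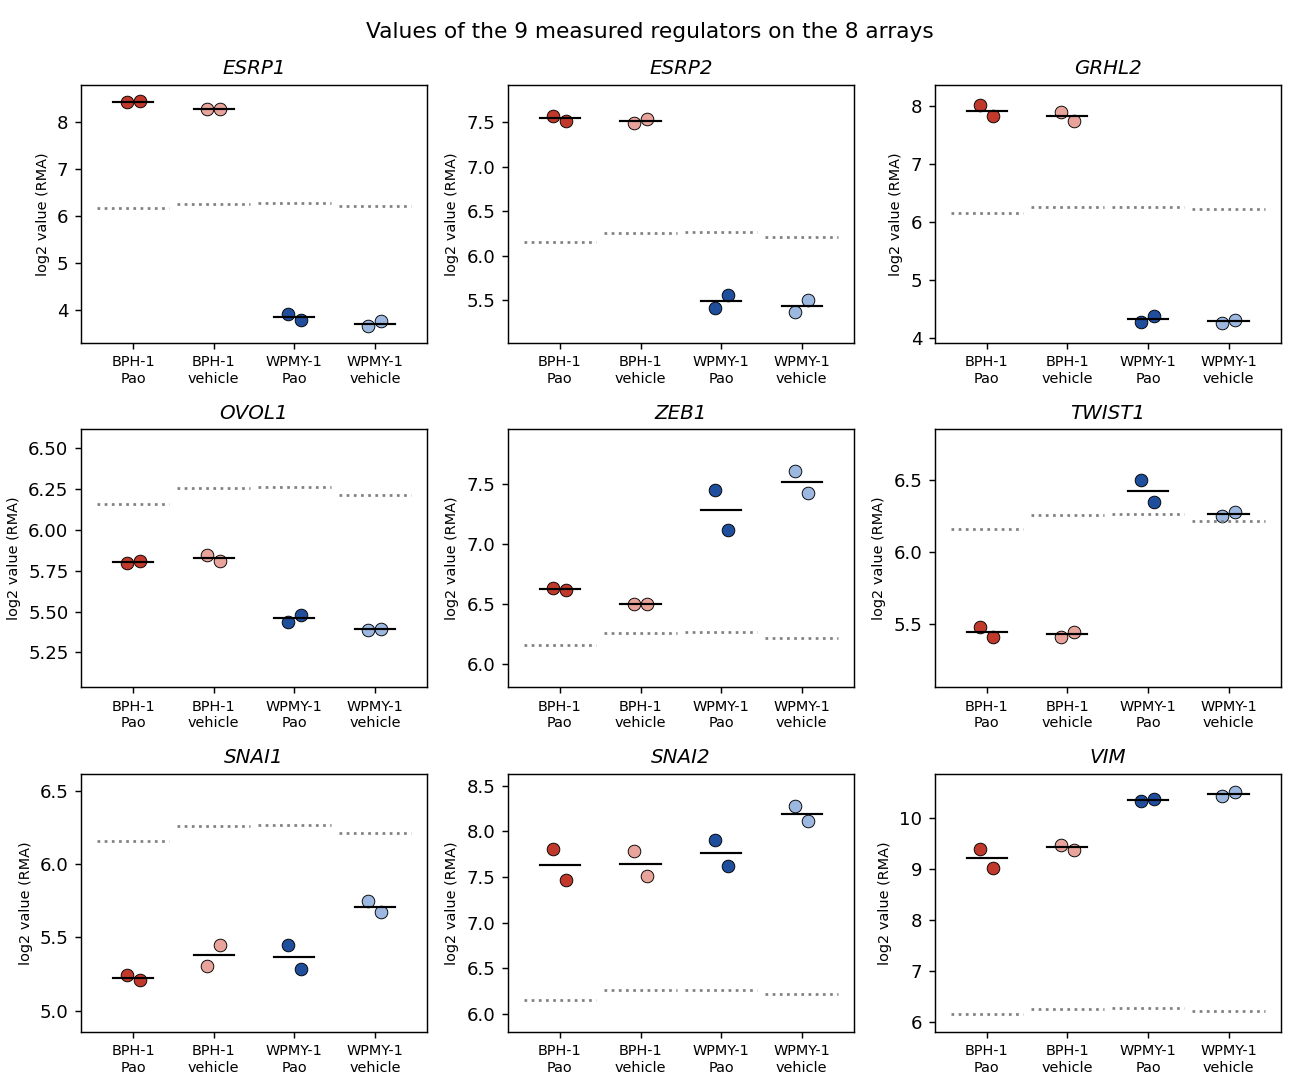
Log2 level after RMA (vertical axis) of the 9 measured regulators on each of the 8 arrays, 1 panel a gene, in BPH-1 cells and WPMY-1 cells with Pao extract or vehicle. Points are single arrays, and the dotted line is the 95th percentile of the background genes. GRHL2, ESRP1 and ESRP2 lie above the line in BPH-1 cells alone, and TWIST1 lies above it in WPMY-1 cells alone.

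The first comparison asked how the 2 lines differ in these regulators without extract. The epithelial splicing factors ESRP1 and ESRP2 and the epithelial factor GRHL2 were at least 4.21-fold (ESRP2) to at least 23.7-fold (ESRP1) higher in BPH-1 cells than in WPMY-1 cells, where all 3 were near background. VIM, ZEB1 and SNAI2 were 1.46-fold to 2.06-fold lower in BPH-1 cells. TWIST1, near background there and not securely above it in WPMY-1 cells, was 1.79-fold lower. All 9 measured genes passed the test, 4 higher and 5 lower in BPH-1 cells (limma, Benjamini-Hochberg adjusted over 22465 genes), where 15.6% of all genes were called higher and 15.3% lower. The 2 arrays of BPH-1 cells and the 2 of WPMY-1 cells did not overlap for any of the 9 genes, as for 62.9% of all genes. Pao-treated cells provided the same line comparison on the other 4 arrays, and there 7 of the 9 were called, 4 higher and 3 lower, against 14.9% of all genes higher and 15.9% lower.

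The largest difference was that of ESRP1, which directs the epithelial exon choice of FGFR2 and CD44. Its log2 levels were 8.28 and 8.27 in vehicle-treated BPH-1 cells, against 3.65 and 3.76 in vehicle-treated WPMY-1 cells. With Pao extract they were 8.42 and 8.43 in BPH-1 cells, against 3.92 and 3.78 in WPMY-1 cells. The WPMY-1 arrays were far below background and the BPH-1 arrays well above it, so the log2 difference of 4.57 ± 0.07 (SE, n = 2 each, at least 23.7-fold, limma adjusted p = 7.8e-09) between the vehicle groups is a lower bound. The difference between the Pao groups was 4.57 on the log2 scale as well (limma adjusted p = 9.2e-09).

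ESRP2, the close homologue of ESRP1, had log2 levels of 7.49 and 7.54 in vehicle-treated BPH-1 cells, against 5.37 and 5.50 in vehicle-treated WPMY-1 cells. Under Pao extract the levels were 7.57 and 7.52 in BPH-1 cells, against 5.42 and 5.56 in WPMY-1 cells. Again only the BPH-1 arrays were above background. The log2 difference, a lower bound, was 2.08 ± 0.08 (SE, at least 4.21-fold, limma adjusted p = 5.2e-07) with vehicle and 2.05 with Pao extract (adjusted p = 5.6e-07).

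GRHL2, a grainyhead factor that activates E-cadherin and claudin genes, had log2 levels of 7.90 and 7.74 in vehicle-treated BPH-1 cells, against 4.26 and 4.31 in vehicle-treated WPMY-1 cells. In Pao-treated cells they were 8.02 and 7.83 in BPH-1 cells, against 4.26 and 4.37 in WPMY-1 cells. The log2 difference of 3.54 ± 0.09 (SE, at least 11.6-fold, limma adjusted p = 6.0e-08) with vehicle was matched by 3.60 with Pao extract (adjusted p = 5.6e-08), and both are lower bounds because WPMY-1 cells were at background. OVOL1, a zinc finger repressor of mesenchymal genes, had log2 levels of 5.85 and 5.81 in vehicle-treated BPH-1 cells, against 5.39 and 5.40 in vehicle-treated WPMY-1 cells. These levels did not overlap and the log2 difference of 0.44 ± 0.06 (SE, limma adjusted p = 0.00086) passed the test, but all of them lay near background.

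VIM transcript was above background in both lines. Its probe set had log2 levels of 9.45 and 9.37 in vehicle-treated BPH-1 cells, against 10.42 and 10.50 in vehicle-treated WPMY-1 cells. Both BPH-1 arrays were far above background, at a level 2.06-fold lower than in WPMY-1 cells (log2 difference −1.05 ± 0.11 SE, limma adjusted p = 0.00019). In Pao-treated cells the levels were 9.39 and 9.02 in BPH-1 cells, against 10.32 and 10.37 in WPMY-1 cells (log2 difference −1.14, adjusted p = 0.00012).

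ZEB1, the repressor of E-cadherin and of the miR-200 loci, had log2 levels of 6.50 and 6.50 in vehicle-treated BPH-1 cells, against 7.61 and 7.43 in vehicle-treated WPMY-1 cells. The BPH-1 arrays were just above the 95th percentile of background, and the log2 difference was −1.02 ± 0.11 (SE, 2.03-fold lower, limma adjusted p = 0.0002). Under Pao extract the levels were 6.63 and 6.62 in BPH-1 cells, against 7.46 and 7.12 in WPMY-1 cells, and the difference was −0.66 on the log2 scale (adjusted p = 0.00214). TWIST1, which drives the mesenchymal programme in the embryo, had log2 levels of 5.41 and 5.44 in vehicle-treated BPH-1 cells, near background, against 6.25 and 6.27 in vehicle-treated WPMY-1 cells. Its log2 difference was −0.84 ± 0.07 (SE, 1.79-fold lower, limma adjusted p = 5.8e-05) with vehicle. With Pao extract the levels were 5.48 and 5.41 in BPH-1 cells, against 6.50 and 6.34 in WPMY-1 cells (log2 difference −0.98, adjusted p = 2.5e-05).

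The SNAI genes were called between the vehicle groups and not between the Pao groups, and the interaction given below was called for neither. SNAI2, a repressor that basal epithelial cells also use, had log2 levels of 7.78 and 7.51 in vehicle-treated BPH-1 cells, against 8.28 and 8.11 in vehicle-treated WPMY-1 cells. All 4 arrays were above background, and the log2 difference was −0.55 ± 0.15 (SE, 1.46-fold lower, limma adjusted p = 0.0222). Under Pao extract its levels were 7.81 and 7.46 in BPH-1 cells, against 7.90 and 7.62 in WPMY-1 cells. These arrays overlapped, and the log2 difference of −0.13 (95% interval −0.46 to 0.21, adjusted p = 0.567) did not pass the test. SNAI1, the repressor induced early in the transition, had log2 levels of 5.31 and 5.45 in vehicle-treated BPH-1 cells, against 5.75 and 5.67 in vehicle-treated WPMY-1 cells, all near background. Its log2 difference was −0.33 ± 0.08 (SE, limma adjusted p = 0.0163) with vehicle and −0.14 (95% interval −0.33 to 0.05, adjusted p = 0.241) with Pao extract.

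**Figure D2:**
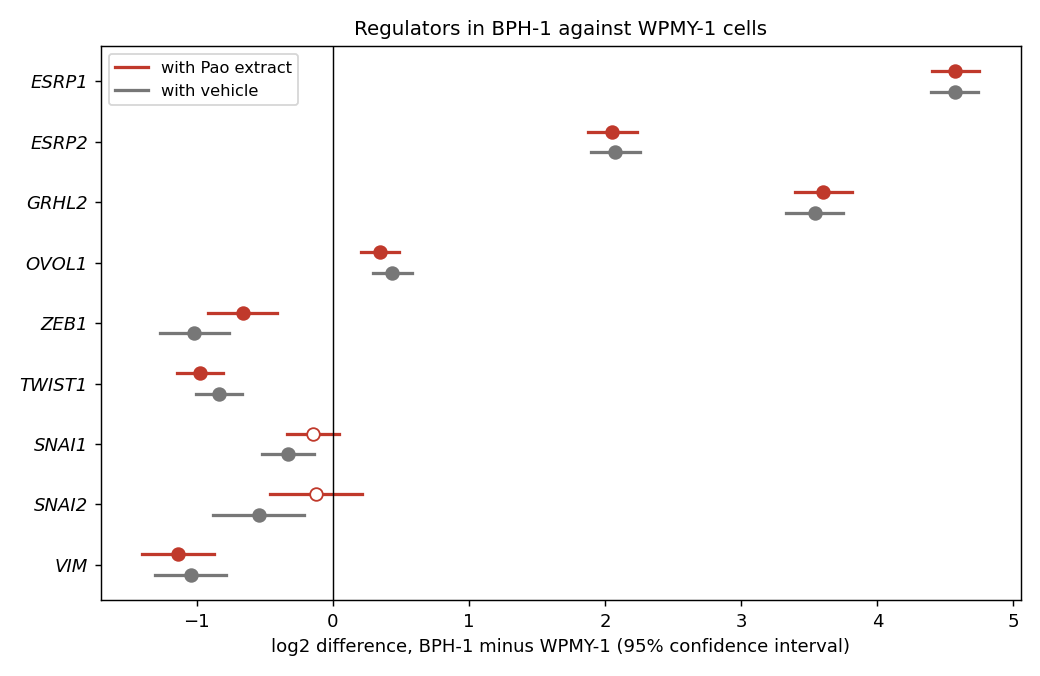
Log2 difference of BPH-1 cells minus WPMY-1 cells (horizontal axis) for the 9 regulators with Pao extract and with vehicle. Points are fitted differences with 95% intervals over 2 arrays a group, filled where limma called them and open where it did not. ESRP1, GRHL2 and ESRP2 stand at 2.05 to 4.57, and SNAI1 and SNAI2 with Pao extract are the 2 differences that were not called.

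Leaving out 1 array at a time kept 7 to 9 of the 9 calls between the vehicle groups. SNAI1 was lost without vehicle array 1 of BPH-1 cells (log2 difference −0.26, adjusted p = 0.109) or of WPMY-1 cells (−0.29, adjusted p = 0.0837), SNAI2 was lost without vehicle array 2 of BPH-1 cells (−0.41, adjusted p = 0.145) or array 1 of WPMY-1 cells (−0.46, adjusted p = 0.119), and the methods' t-test on 2 arrays a group called none of the 9 after Benjamini-Hochberg adjustment.

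For ESRP1, GRHL2 and ESRP2 both BPH-1 groups came before both WPMY-1 groups, and the step between the lines passed the test. The 2 BPH-1 groups did not differ by the test, and the 2 WPMY-1 groups were near background and were not ordered. For VIM, ZEB1 and SNAI2 vehicle-treated WPMY-1 cells came first and Pao-treated WPMY-1 cells second. This step was not called for VIM (limma adjusted p = 0.671), ZEB1 (0.469) or SNAI2 (0.393). For SNAI2 the lower 3 groups, from 7.63 to 7.76, overlapped by array. For TWIST1 Pao-treated WPMY-1 cells came first, again without a call against vehicle (limma adjusted p = 0.458), and the arrays of the 2 BPH-1 groups overlapped.

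Other transcription factors of the epithelial state followed the same side as GRHL2. Of 8 measured of 10 listed, 5 were higher in BPH-1 cells with vehicle and none was lower, against 15.6% of all genes higher and 15.3% lower. The median log2 difference was 0.58, against 0.0243 over all genes. EHF, an ETS factor of glandular epithelium, was higher by 3.81 on the log2 scale, KLF5, a factor of basal epithelial cells, by 2.55, GRHL1, a relative of GRHL2, by 1.13 with both lines near background, and ELF3, another ETS factor, by 0.69. Of 11 measured of 13 other mesenchymal factors, 4 were lower and 1 was higher (median −0.16), against the same shares of all genes. PRRX1, a homeobox factor of mesenchyme, differed by −2.35, TCF4, a helix-loop-helix partner of TWIST1, by −2.29 and its close relative TWIST2 by −1.43, whereas KLF8 differed by 0.65 with both lines near background.

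Most junction and matrix genes also differed between the lines. Of 28 measured of 30 junction genes, 25 were higher in BPH-1 cells and none was lower (median log2 difference 2.07). Of all genes, 15.6% were called higher and 15.3% lower. CGN, among the 25, was near background in both lines. The tight junction gene CLDN1 differed by 5.73, the E-cadherin gene CDH1 by 5.19, the adhesion gene EPCAM by 4.84 and the P-cadherin gene CDH3 by 4.55. The 3 without a call, named after their values were seen, were CLDN3 (0.35), CLDN4 (0.08) and TJP3 (0.18). Of the genes whose promoters are printed, AP1M2 had mean log2 levels of 7.64 in BPH-1 cells, against 5.23 in WPMY-1 cells, with vehicle (limma adjusted p = 2.6e-06), RAB25 had 6.85 in BPH-1 cells, against 4.54 in WPMY-1 cells (adjusted p = 2.3e-06), and CRB3, with the most E-boxes of the 3, had 6.41 in BPH-1 cells, against 5.95 in WPMY-1 cells (adjusted p = 0.00987). All 3 were near background in WPMY-1 cells. In BPH-1 cells CRB3 and RAB25 lay below the level of CRYGD, so neither was securely above background there. Of 23 measured of 24 mesenchymal markers, 21 were lower in BPH-1 cells (median −2.74), against 15.3% of all genes. Among the 21, DCN, LUM and S100A4 were near background in both lines. POSTN (periostin) differed by −4.78, the collagen genes COL6A3 and COL1A2 by −4.64 and −4.42, and LOX, the collagen crosslinking enzyme, by −4.18. The cadherin CDH11, also named after its value was seen, was the only marker higher in BPH-1 cells (1.09, limma adjusted p = 0.00118), and ACTA2 differed by −0.18 without a call and with both lines near background.

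**Figure D3:**
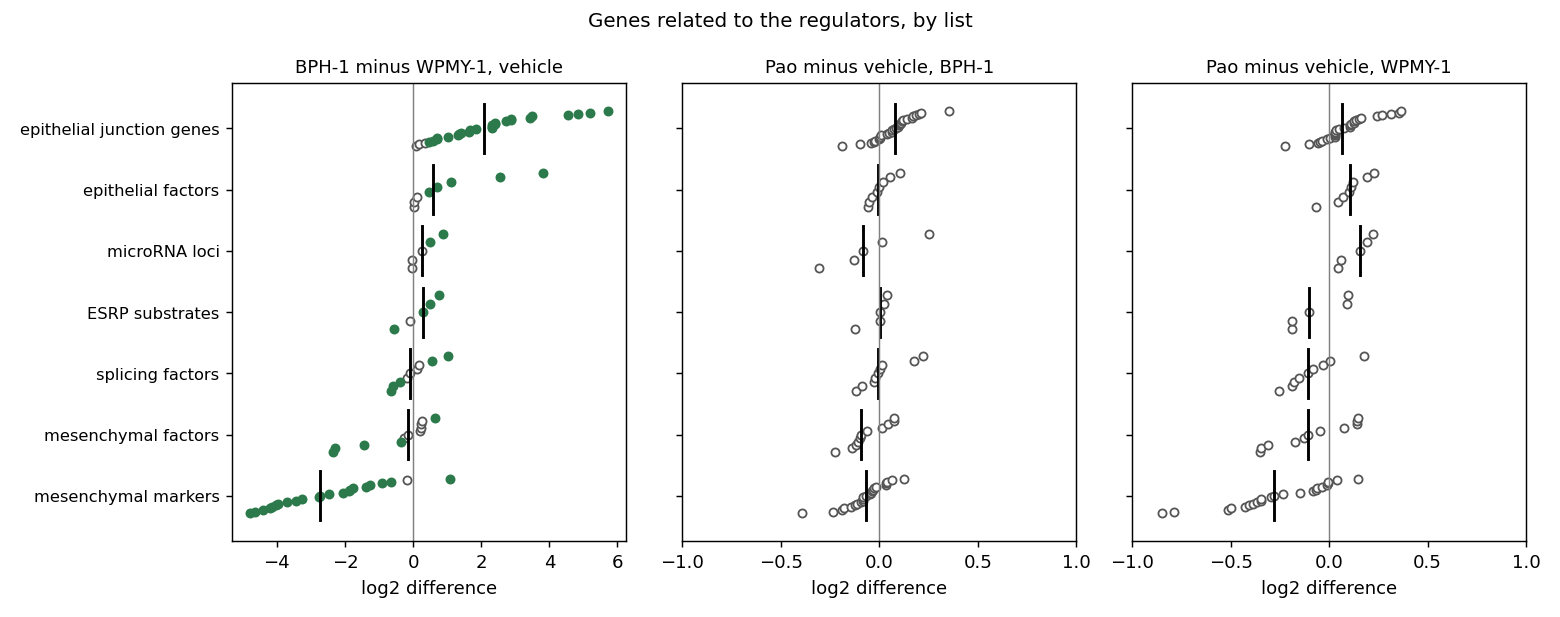
Log2 difference (horizontal axis) of single genes in lists related to the regulators, for BPH-1 cells minus WPMY-1 cells and for Pao extract minus vehicle in each line. Points are genes, filled where limma called them and open where it did not, and the black tick is the list median. Junction genes spread to 5.73 and mesenchymal markers to −4.78 between the lines with vehicle, and no gene of these lists was called with Pao extract.

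The microRNA loci were read as precursor probe sets, all with group means near background. Of 5 measured of 7 listed loci, 2 were higher in BPH-1 cells with vehicle, against 15.6% of all genes. MIR141 had log2 levels of 3.42 and 3.41 in vehicle-treated BPH-1 cells, against 2.66 and 2.44 in vehicle-treated WPMY-1 cells (log2 difference 0.87, limma adjusted p = 0.00121). MIR200C had 4.25 and 4.36 in BPH-1 cells, against 3.87 and 3.75 in WPMY-1 cells (0.49, adjusted p = 0.00451). Both lie in the chromosome 12 cluster and carry different seeds. The 3 loci of the chromosome 1 cluster differed by 0.25 (MIR429), −0.02 (MIR200B) and −0.03 (MIR200A) without a call. These probe sets do not measure mature microRNA.

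In the lists of genes for proteins that work with the regulators, the counts are to be read against the 15.6% of all genes called higher and the 15.3% called lower. Of 9 corepressors that SNAI and ZEB factors recruit, the deacetylase gene HDAC1 was higher in BPH-1 cells (log2 difference 0.25), and RCOR1 (−0.32) and SMARCA4 (−0.22), which belong to chromatin complexes, were lower. Of 9 measured of 10 other splicing factors, 2 were higher and 3 were lower: RBM47, an epithelial splicing factor, differed by 1.02, RBFOX2, which favours mesenchymal exons, by −0.64, MBNL2 by −0.60 and CELF2 by 0.56, CELF2 with both lines near background. Of 5 measured of 8 genes with exons under ESRP control, FGFR2 (0.75, near background in both lines), ENAH (0.49) and ARHGEF11 (0.28) were higher and CD44 (−0.56) was lower. These are gene-level values and say nothing of exon use. Of 7 genes that set the turnover of SNAI1 protein, FBXL14, an ubiquitin ligase subunit, was higher (0.58), and of 6 intermediate filament genes and linkers, PLEC, the linker protein plectin, was lower (−0.25).

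Genes with the most similar pattern were found for each member by the root mean square difference over the 8 arrays after each gene was centred on its own mean. For GRHL2 these were the desmosomal cadherin DSC2 (0.061 on the log2 scale), CDS1 (0.097) and MYO5C (0.104), with 6 genes in all within 0.15. For ESRP1 they were PPP4R4 (0.116), EPCAM (0.163) and CDH3 (0.163), and for ESRP2 SULF2 (0.0412), MYO5B (0.0457) and ARFGEF3 (0.0575). For VIM they were NAV3 (0.0831), SLC22A4 (0.0832) and ROR1 (0.0868), and for ZEB1 C14orf39 (0.04), TBC1D23 (0.0635) and DLC1 (0.0647). TWIST1 lay nearest to MAP2, KCNIP3 and CHSY3 (0.0457 to 0.0539) and SNAI2 to CIP2A, TMA16 and ABCE1 (0.0698 to 0.0718). SNAI1 lay nearest to LAMC1, MIR4310 and RPL35A (0.0528 to 0.0749), with 1404 genes within 0.15, and OVOL1 to MRPL11, COQ6 and CFAP20 (0.0242 to 0.034), with 3242. Within 0.15 also lay 1 gene for ESRP1, 49 for ESRP2, 78 for VIM, 254 for ZEB1, 351 for TWIST1 and 384 for SNAI2. The measure takes in the difference between the lines as well as that between treatments.

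The second question was whether Pao extract changed these regulators in either line. In BPH-1 cells none of the 9 genes was called, as none of the 22465 genes was (0%), and the adjusted p was 1 for each member. At an unadjusted p under 0.05, 4.13% of all genes and 0 of the 9 members passed. The log2 differences of Pao-treated minus vehicle-treated BPH-1 cells ran from −0.21 for VIM to 0.15 for ESRP1. The VIM levels given above overlapped between Pao-treated and vehicle-treated arrays, with Pao array 2 the lowest of the 4 (95% interval of the difference −0.47 to 0.05). Without Pao array 2 the VIM difference was −0.0241, and without Pao array 1 it was −0.40. ESRP1 (95% interval −0.02 to 0.32) and ZEB1 (0.13, −0.13 to 0.38) were higher on both Pao arrays than on both vehicle arrays, and SNAI1 was lower on both (−0.15, −0.34 to 0.04). Such separation held for 33.3% of all genes in this line. Intervals for GRHL2 (0.10, −0.11 to 0.31), ESRP2 (0.03, −0.15 to 0.21), TWIST1 (0.02, −0.15 to 0.19), OVOL1 (−0.02, −0.17 to 0.12) and SNAI2 (−0.01, −0.35 to 0.32) also spanned 0.

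In WPMY-1 cells none of the 9 genes was called either, where 15 of all genes (0.0668%) were. With the replicate number of the labels as a block, SNAI2 alone of the members was called there (log2 difference −0.43, limma adjusted p = 0.0492), among 223 genes. SNAI2 and SNAI1 showed the largest differences. SNAI2 had log2 levels of 7.90 and 7.62 in Pao-treated WPMY-1 cells, against 8.28 and 8.11 in vehicle-treated WPMY-1 cells, and both Pao arrays lay below both vehicle arrays. Its log2 difference was −0.43 ± 0.15 (SE, 1.35-fold, 95% interval −0.77 to −0.09), with an unadjusted p of 0.0182 and a limma adjusted p of 0.393. SNAI1 had log2 levels of 5.45 and 5.29 in Pao-treated WPMY-1 cells, against 5.75 and 5.67 in vehicle-treated WPMY-1 cells. Its log2 difference was −0.34 ± 0.08 (SE, 95% interval −0.53 to −0.15, unadjusted p = 0.0032, limma adjusted p = 0.271), with all 4 arrays near background. These 2 were the only members with an unadjusted p under 0.05, which 11.2% of all genes had.

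ZEB1 differed by −0.23 on the log2 scale with overlapping arrays (95% interval −0.48 to 0.03, limma adjusted p = 0.469) and ran from −0.39 without Pao array 1 to −0.0618 without Pao array 2, and VIM by −0.12 (−0.38 to 0.15, adjusted p = 0.671). TWIST1 differed by 0.16 (−0.01 to 0.33, adjusted p = 0.458), with both Pao arrays above both vehicle arrays. The epithelial genes were at background in this line and differed by 0.14 (ESRP1), 0.07 (OVOL1), 0.05 (ESRP2) and 0.03 (GRHL2). Pao and vehicle arrays did not overlap for 6 of the 9 members, 3 higher and 3 lower, as for 43.6% of all genes. No member reached 1.4-fold, the cutoff of the study, which 0.298% of all genes passed in BPH-1 cells, against 1.02% of all genes in WPMY-1 cells.

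**Figure D4:**
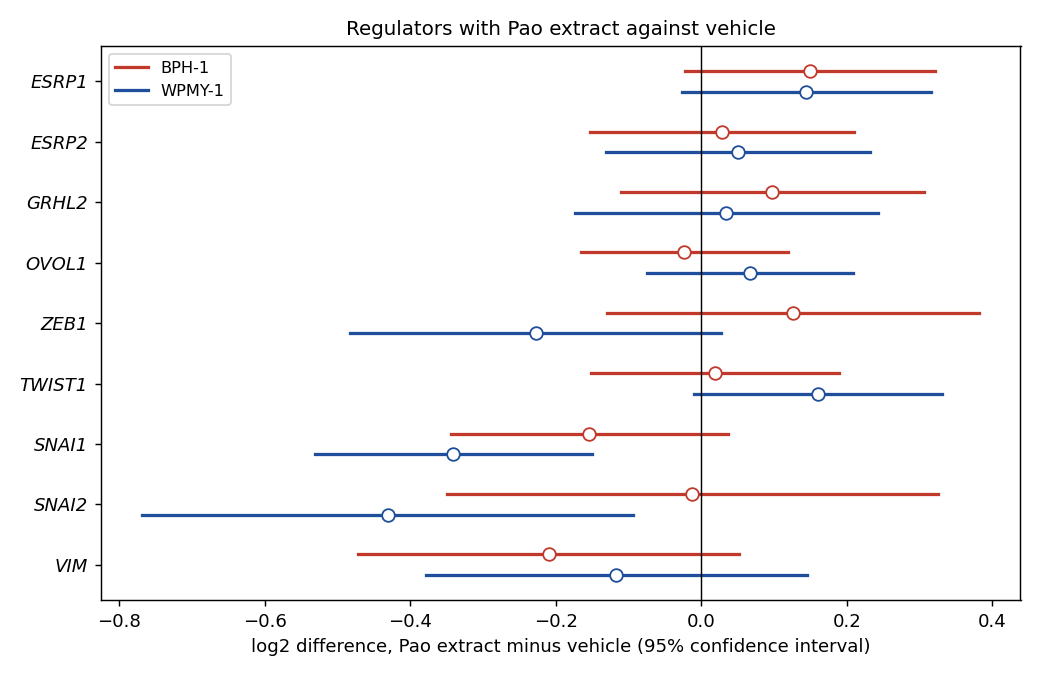
Log2 difference of Pao extract minus vehicle (horizontal axis) for the 9 regulators in each of the 2 lines. Points are fitted differences with 95% intervals over 2 arrays a group, all open because limma called none. In WPMY-1 cells SNAI2 (−0.43) and SNAI1 (−0.34) are the members whose intervals do not reach 0.

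The difference of the 2 responses was tested as an interaction, the response of WPMY-1 cells minus that of BPH-1 cells. No gene of all 22465 was called by limma, 7.13% had an unadjusted p under 0.05, and none of the members was among them. The estimates were largest for SNAI2 (log2 difference of responses −0.42, 95% interval −0.90 to 0.06, adjusted p = 0.686) and ZEB1 (−0.35, −0.71 to 0.01, adjusted p = 0.686). The responses of the lines are therefore not shown to differ, nor shown to be alike, for any member. With 2 arrays a group an exact 2-sided permutation test cannot go below p = 0.333, so no such test was made.

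The related lists also held no call with Pao extract in either line. Junction genes had a median log2 difference of 0.08 in BPH-1 cells (22 of 28 above 0, all genes −0.0145) and 0.06 in WPMY-1 cells (22 of 28, all genes 0.031). Their largest single differences were 0.35 for MARVELD3 in BPH-1 cells and 0.36 for OCLN, the occludin gene, in WPMY-1 cells (limma adjusted p = 0.185). Only 5 of the 28 with vehicle and 6 with Pao extract were above background in WPMY-1 cells. The 16 background genes moved the same way there (median 0.06, 13 above 0), and the other way in BPH-1 cells (−0.06, 11 below 0). Whether junction genes of WPMY-1 cells rose beyond the background genes was not tested. For the mesenchymal markers the median was −0.07 in BPH-1 cells, where the matrix gene TNC differed by −0.39, and −0.28 in WPMY-1 cells, where 21 of 23 were below 0, 11 were lower at an unadjusted p under 0.05 (1049 of all 22465 genes were) and the proteoglycan gene VCAN differed by −0.85 (adjusted p = 0.262). Among the mesenchymal factors the largest differences were −0.22 for PRRX2 in BPH-1 cells, near background, and −0.35 for PRRX1 in WPMY-1 cells, and among the epithelial factors 0.11 for EHF in BPH-1 cells and 0.23 for KLF5 in WPMY-1 cells.

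MIR141 gave the largest difference among the microRNA loci in each line, with levels of 3.10 and 3.12 in Pao-treated BPH-1 cells, against 3.42 and 3.41 in vehicle-treated BPH-1 cells (log2 difference −0.30). In WPMY-1 cells its levels were 2.56 and 2.98 with Pao extract, against 2.66 and 2.44 with vehicle (0.22), and all of these levels lay near background. MIR200A had 3.25 and 3.26 in Pao-treated BPH-1 cells, against 2.95 and 3.05 in vehicle-treated BPH-1 cells, so the differences of the 2 loci with the seed AACACUG had opposite signs there, without a call. In the remaining lists the largest log2 differences in BPH-1 cells were −0.11 for SMARCA4, 0.22 for RBM47, −0.12 for CD44, 0.13 for BTRC and −0.13 for PLEC, and those in WPMY-1 cells were −0.18 for KDM1A, −0.25 for MBNL2, −0.19 for MAP3K7, −0.18 for FBXO11 and 0.30 for SYNM.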

How the data were processed

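For 67528 probe sets on each of 8 arrays the authors deposited a log2 value made with RMA, a method that the submitters' processing notes name without giving its version. Their genome build is not given in the sources used. RMA brings arrays towards a common distribution, which can hide a shift shared by most genes. The deposited values were close in distribution and not identical, with array medians over all probe sets of 4.503 to 4.573. The values were used without a further filter, and because arrays give no counts, their number limits the precision. Gene symbols came from the platform annotation: 23781 have a single symbol, 1543 have more and were set aside, and 42204 have no entry. A RefSeq gene ID was found for 21497.

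With limma 3.58.1 (R 4.3.3), group means were fitted to the 8 arrays together (empirical Bayes, 4 residual degrees of freedom), with p-values adjusted by the Benjamini-Hochberg method over 22465 genes in each comparison and a call at an adjusted p under 0.05. The fit was run on data simulated with independent noise on each array, which leaves out the shared deviations of same-numbered arrays given below. The text names all members, the 4 largest called differences of each related list between the lines, its largest difference with Pao extract in each line, all microRNA loci and the 3 genes nearest in pattern to each member. The members and lists were chosen with earlier results of these data known. Alternatives covered array scaling, a filter on dim genes, the probe sets used, the arrays fitted, the variance model, a replicate block, the methods' t-test and leaving out each array. Background genes and cell type markers were used as descriptions only.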

Additional observations from a re-analysis of the deposited data

How the results depend on the processing

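Between the lines, the member differences kept their direction under every alternative in the vehicle groups. The methods' t-test, which estimates the spread of each gene from 4 arrays alone, was the alternative that ended all calls of members: adjusted p ran from 0.0554 to 0.233 for the 9 with vehicle and from 0.0551 to 0.187 for the 7 with Pao extract, with 0 and 0 members called and 30 and 49 genes called in all. With all probe sets as features, 10771 of 67528 probe sets were called with vehicle and 11337 of 67528 with Pao extract. Of the 22465 genes, 3495 were called higher and 3442 lower with vehicle, and 3349 higher and 3573 lower with Pao extract. The count of calls was thus larger with all probe sets, while the share of features called was smaller. Leaving out 1 array at a time gave 7 to 9 called members and 4962 to 6707 called genes with vehicle, and 5203 to 7021 genes with Pao extract. Without dim genes, SNAI1 and OVOL1 were not tested and 7 members were tested among 9953 genes.

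In WPMY-1 cells with Pao extract, where 15 genes were called, the count was 4 after quantile normalisation, 3 with arrays centred on their medians, 6 with robust moderation, 0 with the 4 arrays of this line alone, 0 with all probe sets, 0 with the t-test and 0 to 9 without 1 array. In BPH-1 cells, where 0 genes were called, the count was 1 without dim genes. The numbers of the labels do not say what they mark, and each line has 2 such pairs. Same-numbered arrays deviated together within BPH-1 cells (r = 0.501) and WPMY-1 cells (r = 0.429), and also between the lines with Pao extract (r = 0.198) and with vehicle (r = 0.338). With the replicate number as a block, the response to Pao extract had 3 called genes in BPH-1 cells and 223 called genes in WPMY-1 cells, with 1 member among the 223, SNAI2 (log2 difference −0.43, adjusted p = 0.0492). The cause of these changes was not tested.

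Signs turned only for small differences without a call. With centred arrays the response of SNAI2 in BPH-1 cells was 0.0089 and the difference of responses of ESRP2 was −0.0214. Without 1 array, SNAI2 ran from −0.30 to 0.0441 between the Pao-treated lines. In BPH-1 cells with Pao extract SNAI2 ran from −0.18 to 0.16 and TWIST1 from −0.0155 to 0.0542. In WPMY-1 cells GRHL2 ran from −0.0194 to 0.0876 and ESRP2 from −0.0223 to 0.12. The differences of responses ran from −0.0927 to 0.28 for VIM, −0.16 to 0.0312 for GRHL2, −0.0761 to 0.0665 for ESRP1 and −0.0506 to 0.0945 for ESRP2. All levels at background limit what can be said of GRHL2, ESRP1 and ESRP2 in WPMY-1 cells, of TWIST1 in BPH-1 cells and of SNAI1, OVOL1 and the microRNA loci in both lines.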

Other observations

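Antisense genes of the regulators have probe sets of their own. VIM-AS1 had log2 levels of 4.77 and 4.84 in Pao-treated BPH-1 cells and 4.99 and 4.80 in vehicle-treated BPH-1 cells. In WPMY-1 cells it had 5.55 and 5.60 with Pao extract and 5.35 and 5.33 with vehicle. It was lower in BPH-1 than in WPMY-1 cells with vehicle, on the same side as VIM (log2 difference −0.45, limma adjusted p = 0.00289), though near background in both lines. ZEB1-AS1 lay between 5.74 and 5.87 on all 8 arrays and was not called between the lines (−0.02, adjusted p = 0.822), and ZEB2-AS1 averaged 3.42 in BPH-1 cells, against 3.37 in WPMY-1 cells, with vehicle. Both were near background.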
